A study of Mus musculus with 56 samples.

Results

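The comparison described here is the effect of the T2F3 genotype in multipotent progenitors (MPP) of mouse bone marrow: 3 T2F3 MPP libraries against 4 wild-type (WT) MPP libraries. They are 7 of the 15 RNA-seq libraries of the series, and the series holds 56 samples, of which the 41 hydroxymethylcytosine and input samples were not analysed here. T2F3 stands for Tet2-/-Flt3ITD, loss of Tet2 together with an internal tandem duplication in Flt3, in C57BL/6 mice, and WT mice carry neither allele. The sorting gate kept cells that lacked lineage markers and CD150 and carried Sca-1, c-Kit and CD48. The labels give neither the age nor the sex of the animals, do not say how they were treated before harvest, and do not tie the libraries to separate animals. The p-values below therefore measure only the spread between libraries, which may be technical. Every gene with a mean level of at least 4 over the 7 libraries was tested, 12246 of the 24424 genes in the table. Levels are regularized log2 values, so a difference of 1 is a 2-fold change, and the values hold no read counts, so the depth behind each is unknown. A gene was called when the adjusted p of limma, a linear model fitted across all genes, was under 0.05. WT libraries are numbered 1, 3, 4 and 5 and T2F3 libraries 1, 2 and 3, and values for single libraries are given in that order.

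MPP lie between the long-lived stem cells and the lineage-restricted progenitors, and give rise to myeloid, erythroid, megakaryocytic and lymphoid cells. TET2 oxidizes 5-methylcytosine in DNA, and its loss is common in clonal disorders of the blood. FLT3 is the receptor for FLT3 ligand on early progenitors and dendritic cells, and the internal tandem duplication makes its kinase signal without ligand, through STAT5, RAS and MAP kinases, and PI3K and AKT.

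The genes of the genotype and of the sorting gate were examined first. Tet2 was read at 9.73, 9.81, 9.89 and 9.71 in WT and 9.67, 9.90 and 9.67 in T2F3, and the groups overlapped. A value for the whole gene does not check a partial deletion, and it does not check a duplication inside Flt3 either. Flt3 stood at 11.38 ± 0.10 (SD, n = 4) in WT and 11.32 ± 0.10 (SD, n = 3) in T2F3, a difference of -0.06 ± 0.08 (SE, adjusted p = 0.517). Both gave no call, and their small differences changed sign to 0.088 for Tet2 and 0.063 for Flt3 when libraries were centred within bins of gene span. Among the sorting genes, Kit, the stem cell factor receptor, was lower in T2F3 by a difference of -0.92 ± 0.09 (adjusted p = 6.85e-06). Cd48 was higher by 1.53 ± 0.09 (adjusted p = 4.85e-07) and Ly6a, which encodes Sca-1, by 0.63 ± 0.11 (adjusted p = 0.000503). Slamf1, which encodes CD150, was too low to be tested in both groups, at 2.76 to 3.10 in WT and 2.08 to 2.13 in T2F3. The sorting genes that should be present were thus present in all 7 libraries.

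The libraries were alike within a group, with a lowest correlation across genes of 0.991 in WT and 0.986 in T2F3. T2F3 MPP 1 stood apart from the other T2F3 libraries: in 480 of the 646 genes called with an over 2-fold change it lay nearest to the WT mean (74.3%). Over the rises of that size its median distance from the WT mean was 1.23, against 1.73 in T2F3 MPP 2 and 1.57 in T2F3 MPP 3. T2F3 MPP 1 was also the only T2F3 library, and WT MPP 3 the only WT library, that expressed Y-linked genes, so in T2F3 its smaller shift and the Y-linked expression cannot be told apart. Without T2F3 MPP 1, 7050 genes were called and 804 of them differed over 2-fold.

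Of the 12246 genes, 6595 were called (53.9%), 3423 of them higher in T2F3 (28.0%) and 3172 lower (25.9%). Most calls were small: 3854 of them (58.4%) differed by less than 0.5. A change over 2-fold was called in 646 genes (5.28%), 455 higher (3.72%) and 191 lower (1.56%). Of these 646 genes, 89 had a mean under 4 in 1 group, 40 of them in WT and 49 in T2F3, so they reached the test through the group in which they were high and had to differ. The T2F3 and WT libraries did not overlap in 6608 genes (54.0%), of which 6003 were called. The plot of every tested gene shows rises extending to larger sizes than falls.

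**Figure D1:**
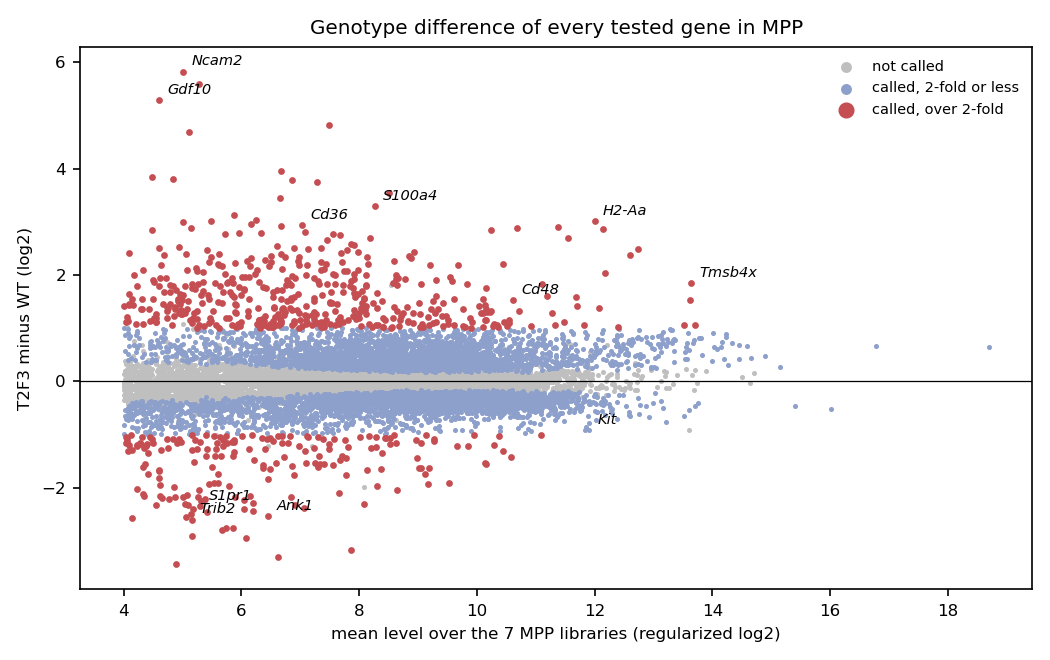
Each point is 1 of the 12246 tested genes, with its mean level over the 7 MPP libraries (regularized log2) on the horizontal axis and the T2F3 minus WT difference (log2) on the vertical axis. Red points are the 646 called genes with a change over 2-fold, 455 above and 191 below the line at 0, and Ncam2 and Gdf10 are among the highest.

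Among the genes named by rule, the largest rise was in Ncam2, a neural cell adhesion molecule of the immunoglobulin superfamily. Ncam2 was read at 2.49, 2.38, 2.66 and 2.52 in WT and at 9.17, 7.96 and 7.88 in T2F3. It was thus near the bottom of the scale in every WT library and clearly expressed in every T2F3 library. The difference was 5.82 ± 0.27 (SE). Gdf10, which encodes a secreted ligand of the TGF-beta superfamily, followed the same pattern, at 2.39, 2.27, 2.29 and 2.41 in WT and 9.06, 7.05 and 6.79 in T2F3. Its difference was 5.29 ± 0.51, and T2F3 MPP 1 was the highest library for both genes. Ncam2, Gdf10 and Adam23 below had WT means under 4 and were tested only through their T2F3 levels, so their differences are given as a description. In granulocyte-macrophage progenitors (GMP) the same genotype gave a difference of 0.24 ± 0.21 for Ncam2 (adjusted p = 0.479) and 0.35 ± 0.34 for Gdf10 (adjusted p = 0.527).

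Antigen presentation and innate immune genes were among the other large rises. H2-Aa, a chain of an MHC class II molecule, was read at 10.03, 11.05, 10.90 and 10.88 in WT and 13.17, 14.08 and 13.90 in T2F3. All WT libraries were high in absolute terms and all T2F3 libraries were higher still, by 3.01 ± 0.31 (adjusted p = 0.000282). H2-Eb1, another class II chain, rose by 2.89 ± 0.31, and Cd83, a surface protein of activated dendritic cells, by 2.95 ± 0.25. The interferon-induced gene Ifi27l2a rose by 2.91 ± 0.39. Ifi27l2a was read at 7.27 in T2F3 MPP 1 and at 8.81 and 8.91 in the other T2F3 libraries, against 5.32 to 5.60 in WT. Bcl2a1b, of the anti-apoptotic BCL2 family, rose by 3.45 ± 0.22, and since near-identical copies of it exist, the copy is uncertain. Camk2b, a subunit of a calcium- and calmodulin-dependent kinase, rose by 3.12 ± 0.31, Fndc7 by 3.02 ± 0.20 and Adam23, of the disintegrin and metalloprotease family, by 2.89 ± 0.22. Cd36, a receptor that takes up fatty acids and lipoproteins, went from 5.49, 5.85, 5.96 and 5.76 in WT to 8.37, 8.88 and 8.85 in T2F3, a rise of 2.94 ± 0.15 (adjusted p = 1.28e-07).

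The largest named falls included red cell genes and the B cell gene Cd79a. Trib2, a pseudokinase, was read at 6.38, 6.30, 6.38 and 6.02 in WT and 3.72, 3.66 and 3.61 in T2F3, the largest of these falls at -2.61 ± 0.14. Trib2, Slc16a12, Sphk1, Kel, S1pr1 and Rhag, and Epor and Gna14 below, had T2F3 means under 4 and were tested only through their WT levels, so their differences are a description as well. The erythroid transcription factors Gata1 (-2.45) and Sox6 (-2.41) fell, as did the red cell membrane skeleton gene Ank1 (-2.53) and the red cell surface genes Kel (-2.41) and Rhag (-2.33). Cd79a, of the B cell receptor, fell as well (-2.46), while Cd79b, also of that receptor, gave no call (-0.09 ± 0.09, adjusted p = 0.408 by limma). Sphk1, a kinase that makes sphingosine 1-phosphate, was read at 6.32, 6.24, 6.29 and 6.02 in WT and 3.65, 3.74 and 3.75 in T2F3, a difference of -2.50 ± 0.13. Mfsd2b, which exports that lipid from red cells and platelets, differed by -2.38 ± 0.17, and its receptor S1pr1 by -2.35 ± 0.14. The transporter Slc16a12 differed by -2.58 ± 0.32, with WT MPP 3 (4.26) below the other WT libraries (5.36 to 5.87). The plot of these genes by library gives the value in each of the 7 libraries.

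**Figure D2:**
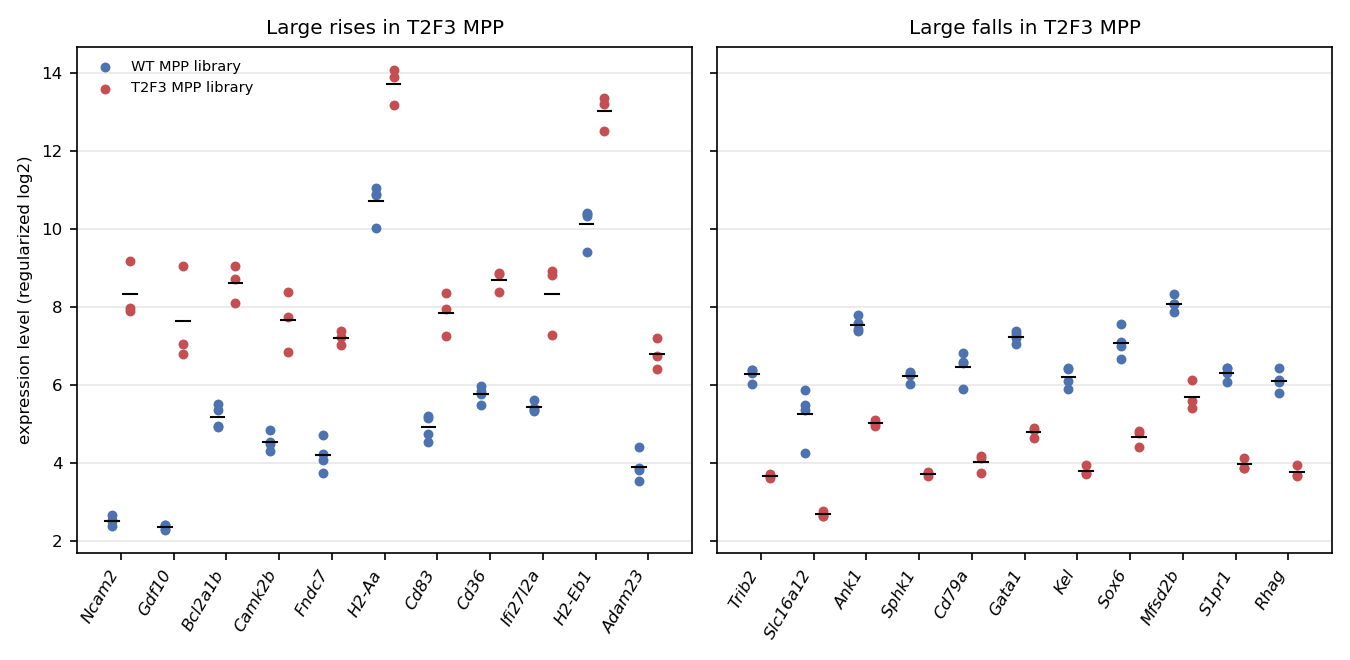
Points are the regularized log2 levels of single libraries for the 11 named large rises (left) and the 11 named large falls (right), blue for the 4 WT MPP and red for the 3 T2F3 MPP libraries, and bars are group means. In each of these genes the 2 colours do not overlap, as the naming rule required.

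The 250 bases before the RefSeq start of each gene (build GRCm38.p6) were searched for 4 short motifs on both strands, as a description of sequence with no test. The windows were available for 9791 tested genes, 347 of those over 2-fold higher and 149 of those over 2-fold lower. The PU.1 motif GAGGAAGT was in 8.07% of the higher, 0.671% of the lower and 2.79% of all windows. The interferon response motif, GAAA repeated after a gap of 2 bases, was in 10.1%, 2.68% and 2.76%, the GATA motif AGATAAG in 2.31%, 4.03% and 1.61%, and the STAT motif TTCNNNGAA in 7.49%, 4.03% and 6.03%, in that order. Near-identical genes among the higher ones share promoter sequence, so these windows are not independent of each other. The shares of the lower genes rest on 1 window for PU.1, 4 for interferon response, 6 for GATA and 6 for STAT. The GATA share of the higher genes rests on 8. Below are 4 windows, chosen after the values were seen, 3 of genes that were higher and 1 of a gene that was lower, with the matched letters in capitals, on the gene's strand or as its reverse complement. They lie at chr9:89199023-89199272 (+ strand, Bcl2a1b, a PU.1 match), chr5:104434861-104435110 (+ strand, Spp1, both a PU.1 and an interferon response match), chr1:172590569-172590818 (- strand, Slamf8, an interferon response match) and chr9:21963577-21963826 (- strand, Epor, a GATA match).
Bcl2a1b: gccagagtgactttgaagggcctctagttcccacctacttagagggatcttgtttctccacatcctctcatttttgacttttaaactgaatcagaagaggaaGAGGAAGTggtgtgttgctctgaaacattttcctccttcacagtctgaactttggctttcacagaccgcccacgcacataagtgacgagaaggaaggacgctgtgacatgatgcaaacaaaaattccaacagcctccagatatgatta
Spp1: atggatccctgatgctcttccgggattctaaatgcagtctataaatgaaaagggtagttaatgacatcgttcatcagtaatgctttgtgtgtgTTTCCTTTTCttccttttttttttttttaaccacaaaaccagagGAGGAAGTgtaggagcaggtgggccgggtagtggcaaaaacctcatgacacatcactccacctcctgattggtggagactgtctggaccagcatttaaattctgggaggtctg
Slamf8: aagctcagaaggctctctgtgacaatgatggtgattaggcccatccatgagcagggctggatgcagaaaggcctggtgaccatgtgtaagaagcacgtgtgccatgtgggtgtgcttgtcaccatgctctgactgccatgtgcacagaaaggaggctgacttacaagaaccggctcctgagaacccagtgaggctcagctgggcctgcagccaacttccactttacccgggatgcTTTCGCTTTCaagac
Epor: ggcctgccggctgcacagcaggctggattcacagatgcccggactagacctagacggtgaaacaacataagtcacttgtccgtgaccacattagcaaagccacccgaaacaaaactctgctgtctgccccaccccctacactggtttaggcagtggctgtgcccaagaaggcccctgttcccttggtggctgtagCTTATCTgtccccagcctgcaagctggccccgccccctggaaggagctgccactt
Spp1, which encodes the secreted protein osteopontin, was read at 4.93, 4.67, 4.50 and 4.61 in WT and 6.60, 6.99 and 7.01 in T2F3, a rise of 2.19 ± 0.15. Slamf8, a receptor of the SLAM family, was read at 4.51, 5.53, 5.47 and 5.34 in WT and 6.92, 7.84 and 7.38 in T2F3, a rise of 2.17 ± 0.28. Epor, the erythropoietin receptor, was read at 5.95, 5.77, 5.73 and 5.35 in WT and 3.87, 3.73 and 3.55 in T2F3, a difference of -1.98 ± 0.17. None of these 3 genes, chosen after their values were seen, overlapped between the groups, and neither did 54.0% of all tested genes.

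Markers of mature and committed cell types were read beside these results. Their counts read against the 28.0% of all tested genes that were higher and the 25.9% that were lower. In bulk samples, more cells of a type and more RNA of its genes per cell cannot be told apart. Of 7 conventional dendritic cell markers, 6 were higher in T2F3 and 0 lower, and their summed level was 11.94 to 12.44 in WT and 13.75 to 14.52 in T2F3. Such sums add levels off the log scale, so they follow the highest markers. Here H2-Aa was the highest in T2F3, at a mean of 13.72, and Flt3 was the marker without a call. Of 7 monocyte and macrophage markers, 5 were higher and 1 lower, with sums of 12.17 to 12.46 and 12.66 to 13.42. Xcr1, the chemokine receptor of cross-presenting dendritic cells, rose from 5.82, 6.54, 6.76 and 6.91 to 8.83, 9.41 and 9.51, a difference of 2.74 ± 0.28. The 7 neutrophil markers gave 0 calls by limma, and their sums of 13.13 to 13.95 and 13.55 to 14.67 were high in both groups. T2F3 MPP 2 was the highest T2F3 library for all of them but Retnlg. Ltf, for example, was read at 9.72, 10.84 and 9.75 in T2F3. All 3 tested erythroid markers of 8 were lower, while 3 globin genes were listed at 0 in all 7 libraries. Of 7 B cell markers 4 were tested and 3 were lower, of 6 basophil and mast cell markers 5 were lower and 1 higher, and of 7 megakaryocyte and platelet markers 5 were tested, 2 lower and 1 higher. Of 6 T cell markers 2 were tested, 1 of them lower, and of 5 NK cell markers 2 were tested, 1 higher and 1 lower. Of 5 plasmacytoid dendritic cell markers 1 was higher and 1 lower, and all 6 endothelial and stromal markers were under the minimum level. The part that dendritic and monocyte cells have in the gene lists below was not tested.

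Calls also varied with the length of the gene. Of genes that span under 3 kb of the genome, 43.2% were higher in T2F3 and 9.18% lower, with a median difference of 0.21. Of genes over 100 kb, 16.8% were higher and 45.0% lower, with a median of -0.22. At mean levels of 12 and more, 57.1% were higher and 18.2% lower. When libraries were centred within 10 bins of gene span, 6457 genes were called, 2877 of them higher, and 5401 genes were called both ways, all in the same direction. Counts after that centring are given beside lists of each direction below, and for every list whose count of higher or lower genes it moved by 1.5 times or more. The part of gene length in any list was not tested.

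**Figure D3:**
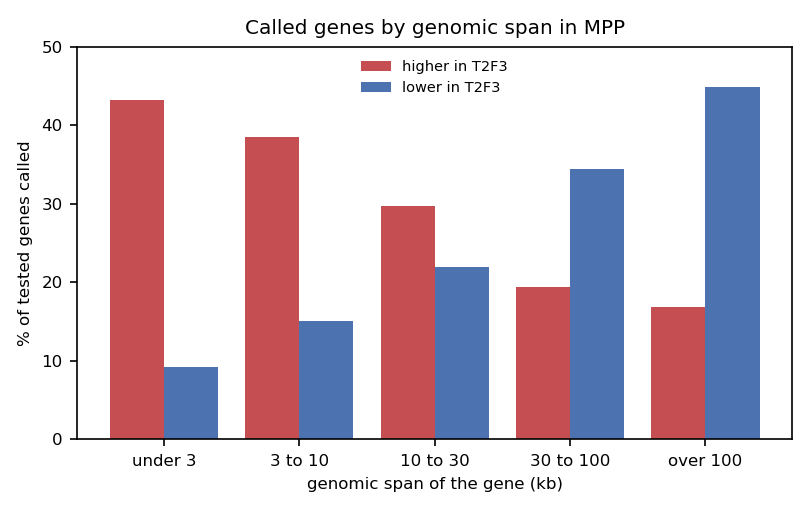
Bars give the percentage of tested genes called higher (red) and lower (blue) in T2F3 MPP, by the genomic span of the gene in kb. The share higher goes from 43.2% under 3 kb to 16.8% over 100 kb, and the share lower from 9.18% to 45.0%.

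Genes at a mean level of 8 or more with changes below 2-fold were named by their p. The named rises of this kind included ribosomal protein genes, Fau (0.98 ± 0.06), Rps18 (0.97 ± 0.06), Rps14 (0.96 ± 0.07), Rpl32 (0.97 ± 0.07) and Rpl36 (0.95 ± 0.07). Fau was read at 11.99, 11.99, 12.02 and 12.00 in WT and 12.92 to 13.02 in the 3 T2F3 libraries, and the groups did not overlap. Ciao2a, of cytosolic iron-sulphur assembly (0.97 ± 0.07), and Micos13, of the mitochondrial cristae (0.92 ± 0.07), rose as well. The named falls, beside Kit, were B4galt6 (-0.93 ± 0.07) and Galnt6 (-0.94 ± 0.08), which add sugars to lipids and proteins, the mTOR inhibitor Deptor (-0.85 ± 0.08), the choline dehydrogenase Chdh (-0.95 ± 0.09), the prostaglandin synthase Ptgs1 (-0.99 ± 0.10), Stxbp4 (-0.91 ± 0.09) and the early progenitor surface protein Cd93 (-0.86 ± 0.09). Cd93 was read at 12.29, 12.26, 12.17 and 12.16 in WT and 11.18, 11.38 and 11.53 in T2F3. The rises given here spanned 1.578 kb (Fau) to 12.37 kb (Ciao2a) and the falls 6.885 kb (Cd93) to 161.6 kb (Stxbp4). The part of gene length in these changes was not tested.

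The 38 gene lists that follow cover functions from the cell surface to the nucleus, and each count reads against the 28.0% of all tested genes that were higher and the 25.9% that were lower. The plot of all lists orders them by their median difference, against a median of -0.02 over all tested genes.

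**Figure D4:**
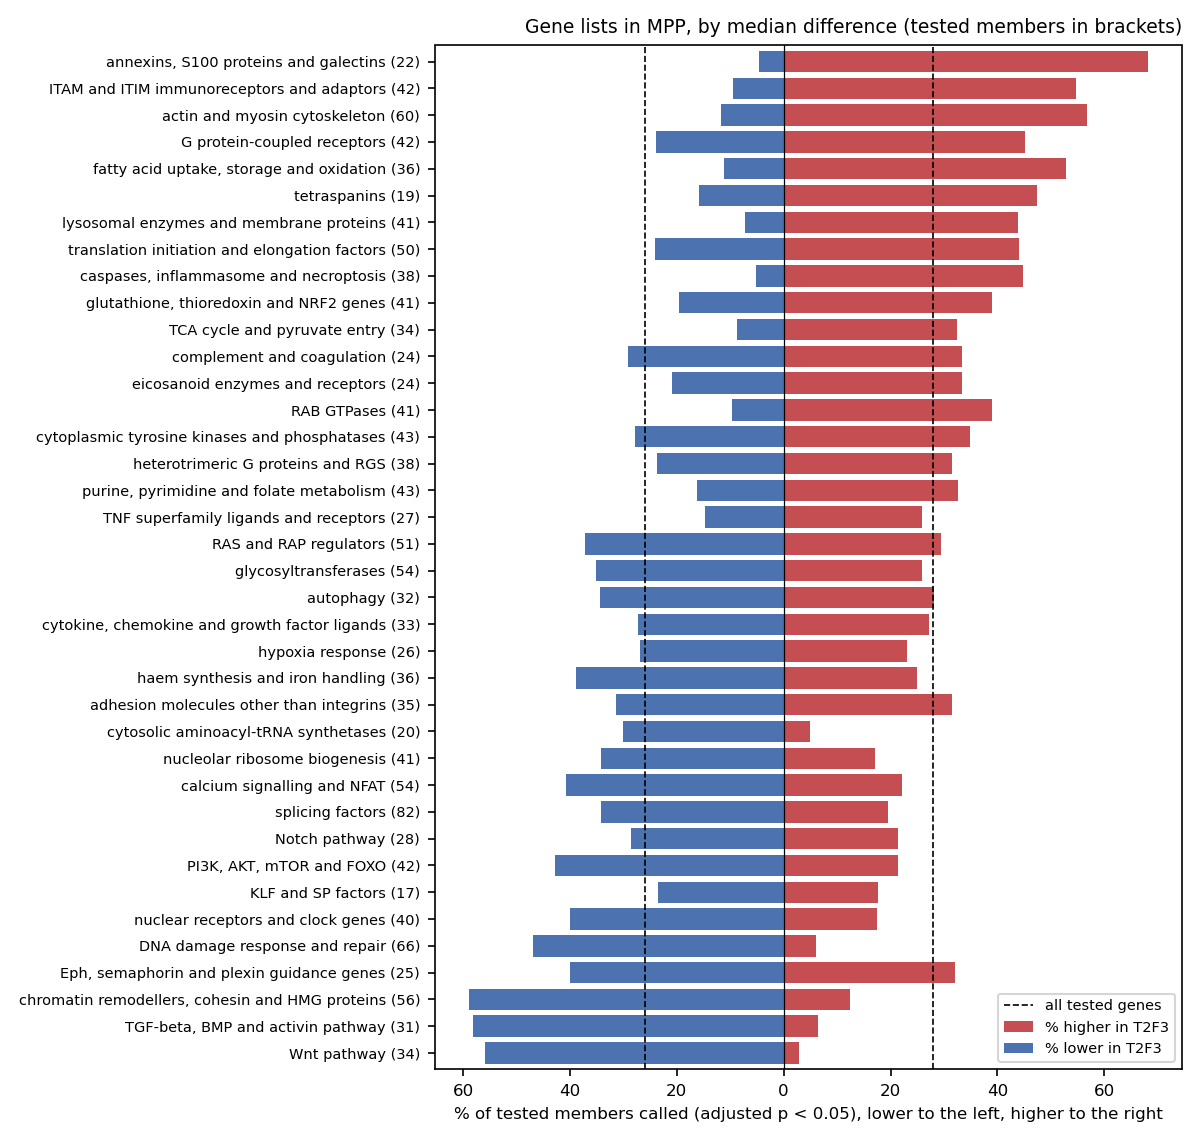
Bars give the percentage of tested members of each of the 38 lists that were called higher (red, to the right) or lower (blue, to the left) in T2F3 MPP, with the number tested in brackets, and dashed lines mark the 28.0% and 25.9% of all tested genes. Annexins, S100 proteins and galectins are at the top, and the Wnt, TGF-beta and chromatin remodeller lists at the bottom.

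At the cell surface, paired immunoreceptors were mostly higher. Of 42 tested receptors and adaptors with activating (ITAM) or inhibitory (ITIM) motifs, 23 were higher in T2F3 and 4 lower, with a median of 0.48. Treml4, a myeloid receptor, was read at 5.00, 5.51, 5.47 and 5.47 in WT and 7.07, 7.54 and 7.50 in T2F3, a rise of 2.01 ± 0.16 (adjusted p = 2.74e-06). Cd300c2 rose by 1.87 ± 0.14. Pecam1, an ITIM adhesion receptor, was lower by a difference of -0.58 ± 0.09, and the highly expressed Sirpa, the receptor for CD47, gave no call (-0.10 ± 0.13, adjusted p = 0.518). Of 24 complement and coagulation genes 8 were higher and 7 lower, with Vwf, the platelet adhesion factor, at 0.81 ± 0.10 and the complement inhibitor Cd55 at -1.27 ± 0.16.

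Receptors coupled to G proteins (nucleotide, lysophospholipid and peptide receptors) gave 19 higher and 10 lower of 42, with a median of 0.28. P2ry10, a receptor for lysophospholipids, was read at 6.67, 7.12, 7.08 and 6.94 in WT and 9.06, 9.62 and 9.43 in T2F3, the largest rise of the list at 2.42 ± 0.14, and S1pr1 above was the largest fall. Of 24 eicosanoid genes 8 were higher and 5 lower. The count of lower genes was 1 to 3 without WT MPP 1, WT MPP 4, WT MPP 5, T2F3 MPP 2 or T2F3 MPP 3, and after centring by gene span 5 were higher and 7 lower. Cysltr1, the receptor for cysteinyl leukotrienes, rose by 2.23 ± 0.18 while Ptgs1 fell by 0.99 and the leukotriene enzyme Lta4h gave no call (0.12 ± 0.08, adjusted p = 0.233). Of 27 TNF superfamily genes 7 were higher and 4 lower, and after centring by gene span 6 and 7. Tnfsf8, the CD30 ligand, rose by 2.16 ± 0.18 and Tnfrsf11a, which encodes RANK, by 1.5 ± 0.15. Tnfrsf22 was lower (-0.45 ± 0.10) and Tnfrsf1a gave no call (-0.07 ± 0.07, adjusted p = 0.445). Of 33 cytokine, chemokine and growth factor ligands 9 were higher and 9 lower, with the chemokine Cxcl16 at 1.62 ± 0.16 and the macrophage growth factor Csf1 at -0.85 ± 0.11.

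Of 19 tetraspanins, membrane organizers, 9 were higher and 3 lower (5 lower without T2F3 MPP 1). Cd9 was read at 8.99, 8.95, 8.98 and 8.89 in WT and 10.10, 10.27 and 10.17 in T2F3, a rise of 1.23 ± 0.07 (adjusted p = 2.51e-07), and Cd81 was lower by a difference of -0.38 ± 0.07. Adhesion molecules other than integrins were split, with 11 higher and 11 lower of 35. Thy1 rose by 1.83 ± 0.11 and Cadm1 by 1.97 ± 0.17, while the protocadherin Pcdh7 differed by -2.26 ± 0.21. Cd34, the sialomucin of early progenitors, gave no call (-0.14 ± 0.08, adjusted p = 0.18). The Eph, semaphorin and plexin guidance genes were split as well, with 8 higher and 10 lower of 25, from Sema4f (2.08 ± 0.18) to Epha7 (-1.92 ± 0.15).

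Of the developmental pathways, the TGF-beta and Wnt lists had more lower than higher genes. TGF-beta, BMP and activin ligands act through receptor kinases and SMAD factors, and of 31 tested genes 2 were higher and 18 lower, with a median of -0.31. The ligand Gdf3 was read at 7.23, 6.60, 7.18 and 7.31 in WT and 4.70, 5.26 and 4.77 in T2F3, a difference of -2.17 ± 0.19 (adjusted p = 5.99e-06). The activin receptor Acvr1b differed by -1.17 ± 0.11, and Acvrl1, the receptor ALK1, went the other way at 1.81 ± 0.21. In the Wnt pathway, which acts through frizzled receptors and beta-catenin, 1 of 34 genes was higher and 19 lower, with a median of -0.35. In the fit of all 15 libraries 12 were lower. The 1 rise was the receptor Fzd1, at 4.01, 4.64, 4.02 and 4.42 in WT and 5.62, 6.24 and 6.32 in T2F3 (1.79 ± 0.21). The kinase Csnk1e was lower by a difference of -0.62 ± 0.09, and beta-catenin itself, Ctnnb1, gave no call (0.10 ± 0.07, adjusted p = 0.277). The lower members spanned 43.4 kb in the TGF-beta list and 70.2 kb in the Wnt list (medians), and after centring by gene span the lists gave 3 higher and 15 lower, and 1 higher and 18 lower. Of 28 Notch genes 6 were higher and 8 lower: Notch4 rose by 1.53 ± 0.11 and the Notch glycosyltransferase Lfng by 1.02 ± 0.10, Notch1 was lower (-0.55 ± 0.07), and Notch2 gave no call (0.10 ± 0.08, adjusted p = 0.272).

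The signalling pathways inside the cell were divided. Of 42 PI3K, AKT, mTOR and FOXO genes 9 were higher and 18 lower, with Deptor above among the falls and the regulatory subunit Pik3r6 at 1.15 ± 0.12. Of 51 RAS and RAP regulators 15 were higher and 19 lower. The exchange factor Rasgrp4 rose by 1.65 ± 0.14 and the GTPase Rras2 by 1.09 ± 0.10, and the RAP inhibitor Sipa1l1 was lower (-0.57 ± 0.08). Of 43 cytoplasmic tyrosine kinases and phosphatases 15 were higher and 12 lower. Lck, the SRC-family kinase best known from T cells, was read at 7.39, 7.55, 7.46 and 7.14 in WT and 8.41, 8.71 and 8.73 in T2F3 (1.23 ± 0.11), and Ptpn18 rose by 0.74 ± 0.07. Syk, the kinase that binds ITAM motifs, was lower by a difference of -0.55 ± 0.08. Of 54 calcium and NFAT genes 12 were higher and 22 lower, with the channel Trpm2 at 1.39 ± 0.09 and the phospholipase Plcg1 at -1.01 ± 0.10. Of 38 G protein and RGS genes 12 were higher and 9 lower, among them Gng10 (1.42 ± 0.10), Rgs10 (1.18 ± 0.12) and Gna14 (-1.16 ± 0.17).

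Genes of the cytoskeleton and of calcium-binding proteins were mostly higher. Of 22 annexins, S100 proteins and galectins 15 were higher and 1 lower, with a median of 0.62, the highest of the 38 lists. S100a4, a calcium-binding protein linked to cell motility, was read at 6.69, 7.12, 6.78 and 6.83 in WT and 10.03, 10.47 and 9.95 in T2F3, a rise of 3.30 ± 0.13 (adjusted p = 7.41e-08). S100a6 was read at 7.13, 6.98, 7.0 and 6.99 in WT and 9.50, 9.95 and 9.71 in T2F3, a rise of 2.70 ± 0.10 (adjusted p = 1.31e-08). The granule protein gene S100a9 gave no call (0.67 ± 0.32, adjusted p = 0.116), and Lgals9, which encodes galectin-9, was lower (-0.49 ± 0.10). Of 60 actin and myosin genes 34 were higher and 7 lower, with a median of 0.35. Tmsb4x, which encodes thymosin beta-4 and binds actin monomers, had a mean level of 12.85 ± 0.14 over the 4 WT libraries (SD) and was read at 14.37, 14.95 and 14.76 in T2F3 (1.85 ± 0.13). The light chain Myl6 rose by 0.79 ± 0.06, Tpm2 was lower (-0.90 ± 0.16), and filamin A, Flna, gave no call (0.10 ± 0.10, adjusted p = 0.37). Actin genes called higher had a median span of 14.7 kb and those called lower 69.1 kb, and after centring by gene span 31 were higher and 6 lower.

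In membrane traffic, 16 of 41 RAB GTPases were higher and 4 lower (2 lower without T2F3 MPP 2 or T2F3 MPP 3), with Rab39 at 2.24 ± 0.18, Rab11a of recycling endosomes at 0.71 ± 0.07 and Rab6b at -0.90 ± 0.14. Of 41 lysosomal genes 18 were higher and 3 lower, and without T2F3 MPP 1 the counts were 28 and 4. The count of lower genes was 5 without WT MPP 5 and 6 after centring by gene span. The cholesterol carrier Npc2 was read at 10.83, 10.85, 10.88 and 10.92 in WT and 11.58, 12.12 and 12.10 in T2F3 (1.06 ± 0.12), and T2F3 MPP 1 was the lowest of the T2F3 libraries. The ceramidase Asah1 rose by 1.02 ± 0.12, and the peptidase Tpp1 was lower (-0.47 ± 0.07). Of 32 autophagy genes 9 were higher and 11 lower. Gabarapl2 and Map1lc3b, which coat the autophagosome, rose by 0.87 ± 0.07 and 0.55 ± 0.07, and the initiating kinase Ulk1 was lower (-0.68 ± 0.11).

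**Figure D5:**
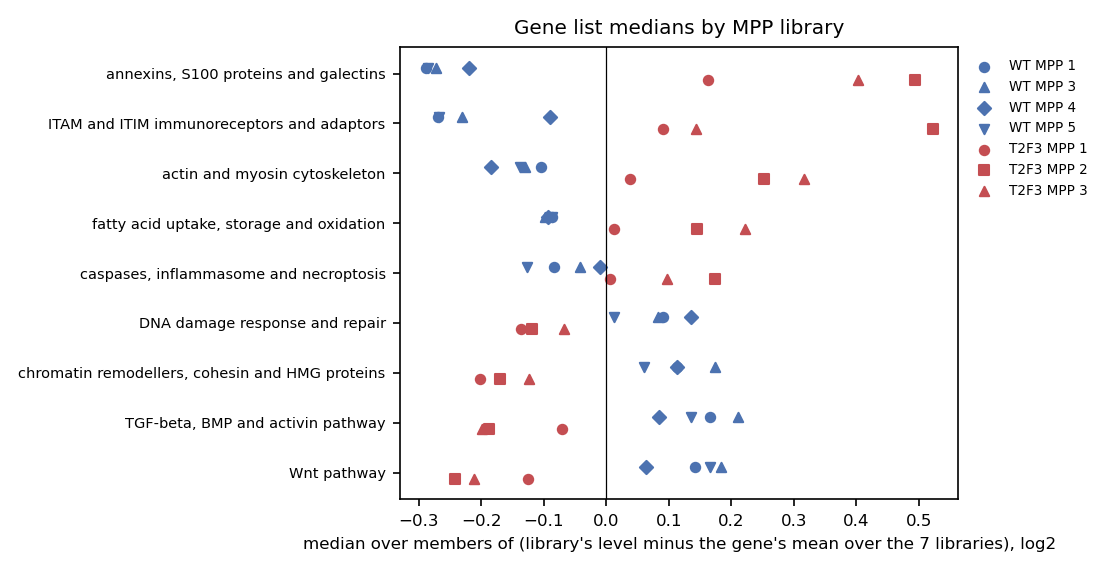
For 9 lists, each point is the median over the list's tested members of a library's level minus the gene's mean over the 7 MPP libraries (log2), in blue for WT and red for T2F3, with a symbol for each library number. The colours do not overlap in any of the 9 lists, which were picked from the 38. Among the lists not shown, the WT and T2F3 values overlap in many. Examples are the TNF, cytokine ligand, Notch, RAS and RAP, haem, TCA, translation factor, nucleolar, adhesion and autophagy lists. T2F3 MPP 1 (red circle) lies nearest to WT in the 5 higher lists and in the Wnt and TGF-beta lists.

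In metabolism, fatty acid genes were more often higher than lower. Of 36 genes of fatty acid uptake, storage and oxidation 19 were higher and 4 lower, with a median of 0.27, and after centring by gene span 18 were higher and 7 lower. Beside Cd36, the oxidation enzyme Echs1 rose by 0.74 ± 0.07, while Cpt1a, the gate of fatty acid entry into mitochondria, was lower (-0.58 ± 0.12). Of 34 genes of the TCA cycle and pyruvate entry 11 were higher and 3 lower, and the count of higher genes was 18 without T2F3 MPP 1 and 7 without T2F3 MPP 2 or T2F3 MPP 3, and that of lower genes was 1 without T2F3 MPP 2. Mpc1 and Mpc2, the subunits of the mitochondrial pyruvate carrier, rose by 0.57 ± 0.08 and 0.81 ± 0.08, and Ogdh was lower (-0.39 ± 0.07). Idh2 gave no call (0.07 ± 0.08, adjusted p = 0.476). Of 41 glutathione, thioredoxin and NRF2 genes 16 were higher and 8 lower (5 lower without T2F3 MPP 2, and 15 higher and 12 lower after centring by gene span). The glutathione transferase Mgst1 stood at 1.39 ± 0.08, the glutathione peroxidase Gpx4 at 0.81 ± 0.07 and Gclm, of glutathione synthesis, at -0.53 ± 0.08.

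Of 36 haem and iron genes 9 were higher and 14 lower. Ceruloplasmin, Cp, a ferroxidase, was read at 5.73, 5.75, 5.88 and 5.92 in WT and 7.83, 8.73 and 8.45 in T2F3 (2.52 ± 0.18), Hfe, a regulator of iron uptake, rose by 1.49 ± 0.12, and the haem enzyme Cpox was lower (-0.60 ± 0.08). Erythroid marker genes were lower in the same libraries, and their part in this list was not tested. Of 26 hypoxia response genes 6 were higher and 7 lower. Vldlr, the VLDL receptor, was read at 8.79, 8.84, 9.15 and 9.51 in WT and 6.86, 6.70 and 6.70 in T2F3 (-2.31 ± 0.16), and the mitophagy gene Bnip3 rose by 0.98 ± 0.08. Of 54 glycosyltransferases 14 were higher and 19 lower, including B4galt6 and Galnt6 above, and the sialyltransferase St3gal2 rose by 0.64 ± 0.08. Of 43 purine, pyrimidine and folate genes 14 were higher and 7 lower, and the count of higher genes was 8 without T2F3 MPP 2 or T2F3 MPP 3 and 7 in the fit of all 15 libraries. Pnp, of purine salvage, rose by 0.69 ± 0.07, Mthfd1, of folate metabolism, was lower (-0.59 ± 0.10), and Rrm1 gave no call (-0.13 ± 0.11, adjusted p = 0.334).

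The lists of protein synthesis differed in direction. Of 50 translation factors 22 were higher and 12 lower, with a median of 0.19. After centring by gene span 17 were higher and 14 lower with a median of 0.05, and after quantile normalization the counts were 19 and 14 and the median was -0.0002. The elongation factor Eef1b2 was read at 12.70, 12.66, 12.81 and 12.71 in WT and 13.57, 13.53 and 13.60 in T2F3 (0.85 ± 0.07), the initiation factor Eif3m rose by 0.79 ± 0.07, and the kinase Eef2k, which inhibits elongation, was lower (-0.77 ± 0.09). Its target Eef2 gave no call (-0.03 ± 0.09, adjusted p = 0.785). Of 41 nucleolar genes of ribosome assembly 7 were higher and 14 lower, and the count of lower genes was 7 without T2F3 MPP 2 and 3 in the fit of all 15 libraries. The genes called higher had a median span of 4.13 kb and those called lower 24.4 kb, and after centring by gene span 4 were higher and 19 lower. Nop10 and Nip7 rose by 0.61 ± 0.07 and 0.65 ± 0.08, and Utp20 was lower (-0.43 ± 0.07). Of 20 cytosolic aminoacyl-tRNA synthetases 1, Dars, was higher (0.45 ± 0.08) and 6 were lower, among them Iars (-0.40 ± 0.08), and the count of lower genes was 3 without T2F3 MPP 1. In the fit of all 15 libraries 0 were higher and 1 lower. Of 82 splicing factors 16 were higher and 28 lower, and 11 and 16 in the fit of all 15 libraries. The small core proteins Snrpg and Snrpd2 rose by 0.80 ± 0.07 and 0.73 ± 0.08, and the large Srrm2 was lower (-0.55 ± 0.07). Splicing genes called higher had a median span of 10.2 kb and those called lower 27.1 kb, and after centring by gene span 15 were higher and 39 lower.

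In the nucleus, genes of DNA repair were more often lower than higher, and most genes of chromatin remodelling were lower. Of 66 genes of the DNA damage response 4 were higher and 31 lower, with a median of -0.22, and after centring by gene span the counts were 4 and 31. The count of higher genes was 2 without T2F3 MPP 2 or T2F3 MPP 3. The changes were small, since 0 of the 66 were called over 2-fold in either direction. Mdc1, a mediator at double-strand breaks, was read at 10.79, 10.86, 10.74 and 10.71 in WT and 10.37, 10.33 and 10.41 in T2F3 (-0.41 ± 0.07, adjusted p = 0.00046), and Fancl rose by 0.52 ± 0.09. Of 56 chromatin remodellers, cohesin and HMG genes 7 were higher and 33 lower, with a median of -0.30, and after centring by gene span 5 were higher and 30 lower. In the fit of all 15 libraries 3 were higher and 27 lower. The remodeller Srcap was read at 12.72, 12.60, 12.64 and 12.77 in WT and 12.17, 11.86 and 11.86 in T2F3 (-0.72 ± 0.09). Hmga2, an architectural protein of fetal and early progenitors, went the other way, at 7.43, 7.55, 7.26 and 7.18 in WT and 9.28, 9.06 and 9.11 in T2F3 (1.80 ± 0.10, adjusted p = 2.51e-07). Stag2, a cohesin subunit, gave no call (0.12 ± 0.10, adjusted p = 0.34).

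Of 40 nuclear receptors and clock genes 7 were higher and 16 lower, and the count of higher genes was 4 without WT MPP 1. Bhlhe40 rose by 1.56 ± 0.16 and Nfil3 by 1.16 ± 0.14, both repressors with a role in the clock and in immune cells, and Rora was lower (-1.33 ± 0.16). Of 17 KLF and SP factors 3 were higher and 4 lower, with Klf2 at 1.00 ± 0.15 and Klf11 at -1.09 ± 0.13. In cell death, 17 of 38 genes of caspases, inflammasomes and necroptosis were higher and 2 lower, and the count of higher genes was 11 without T2F3 MPP 3 or in the fit of all 15 libraries. After centring by gene span 14 were higher and 4 lower. Casp1, the inflammasome protease, was read at 8.76, 8.74, 8.92 and 8.75 in WT and 9.73, 9.84 and 9.71 in T2F3 (0.97 ± 0.07, adjusted p = 1.93e-06). The sensor Nlrp1b rose by 1.58 ± 0.14, and Cflar, an inhibitor of caspase-8, was lower (-0.44 ± 0.07). Casp2 gave no call (-0.09 ± 0.09, adjusted p = 0.377).

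The genotype effect in MPP was set beside that in GMP in a fit of all 15 libraries, with 5 WT and 3 T2F3 GMP libraries. The difference of the effects passed the threshold in 296 of 12246 genes (2.42%). In 245 of these the effect was the larger one in MPP and in 51 in GMP. Genes were chosen by their MPP levels alone, so genes high only in GMP could not enter this split, which is a description. The count of 296 depends on single libraries. It was 634 without T2F3 MPP 1, 90 without T2F3 MPP 3 and 126 without T2F3 GMP 3. It was 197 without WT GMP 2, 157 without T2F3 MPP 2, and 141 to 152 without WT MPP 1, WT MPP 3 or WT MPP 4. Ncam2 had a difference of effects, GMP minus MPP, of -5.58 and Gdf10 of -4.94, given as a description for the reason above. Flt3 was the reverse case, with no call in MPP and a rise of 1.28 ± 0.12 in GMP (difference of effects 1.34, adjusted p = 0.000361). Vldlr fell by 2.31 in MPP, against -0.55 ± 0.17 in GMP (difference of effects 1.76, adjusted p = 0.000941). Lck, Tspan9 and Hfe rose in MPP and gave -0.09, -0.27 and 0.30 in GMP, each without a call there, with differences of effects of -1.32, -1.29 and -1.20. Several erythroid falls were smaller in GMP, among them Ank1 (-1.33) and Sox6 (-0.97). Cd36, H2-Aa, P2ry10 and Notch4 changed in GMP by 2.64, 3.28, 2.52 and 1.56, and their differences of effects did not pass the threshold.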

How the data were processed

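Per the labels' protocols, libraries were made from mRNA with strand kept. The values are log2 levels as the authors deposited them, 24424 Entrez genes by 15 libraries, and the name of the table marks them as regularized log values. DESeq2, HOMER, Bowtie and STAR and the build mm9 are listed, without roles or settings, per the submitters' processing notes. The regularized log shrinks low genes, so their differences are understated, and no counting error can be given. Of the Entrez IDs, 24345 matched a symbol in the RefSeq gene table (GRCm38), which also gave gene spans. Promoter windows are RefSeq's (GRCm38.p6).

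The 7 MPP libraries were fitted with limma 3.58.1 in R 4.3.3 (lmFit, eBayes with trend and robust), two-sided, with Benjamini-Hochberg adjustment over all genes with a mean of at least 4 and a threshold of 0.05 with no minimum fold. Errors are limma's SE, or the SD over libraries. GMP effects and the difference of effects came from all 15 libraries. The script was tested on simulated data. Alternatives were another filter, scaling, variance model, weights, a limma test for differences beyond 0.5, a block on the replicate number, all 15 libraries in 1 fit and each library left out. Centring within bins of gene span, a term for Y-linked expression and a fit without those libraries were chosen after seeing the data.

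The gene lists, markers and the comparison were chosen with earlier results of these data known, and the lists got no set test. Of the 1799 list entries 7 were matched through a synonym that RefSeq gives to 1 gene of the table, which may not be the gene meant, and 1 had no match. Named genes were Tet2, Flt3 and the sorting genes, the 12 largest rises and falls whose groups did not overlap, the 8 rises and 8 falls with the smallest p among genes at a mean of 8 or more that differ by under 1, and in each list the 2 called members with the smallest p, the best in the other direction if both were in 1 direction, and the highest uncalled member. The rule passed over 16 genes with large changes that an earlier text names, predicted genes, pseudogenes and antigen receptor segments. Of the genes and lists it gives, 5 genes and 1 list are not reported here. Spp1, Slamf8, Epor and Xcr1 were chosen after their values were seen. Python 3.11.15 with pandas 2.3.3 made the tables, and Matplotlib 3.10.9 the plots.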

Additional observations from a re-analysis of the deposited data

Results flagged for a closer look

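Among the 171 genes named by rule, 12 had 1 WT MPP library far from the other WT libraries, with a gap above the 95% critical value of Dixon's ratio for 4 samples. Chance alone gives this in about 1 of 20 groups. WT MPP 1 was the low library for H2-Aa (10.03), H2-Eb1 (9.41), Treml4 (5.00) and Cysltr1 (4.68), and the high one for S100a6 (7.13). WT MPP 3 was the high library for Flna (13.26), Ncoa4 (11.44) and Txnip (11.90) and the low one for Rpl36 (11.10). WT MPP 4 was the low library for Gnai2 (12.19) and the high one for Eif3m (10.40) and Casp1 (8.92).

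The effect of the genotype differed between GMP and MPP in 296 genes, and in 26 of the named genes (values are GMP minus MPP differences of the effect, by limma, adjusted p under 0.05). For genes that rose in MPP the values were Ncam2 -5.58, Gdf10 -4.94, Camk2b -2.08, Treml4 -0.87, Vwf -1.02, Tspan9 -1.29, Lck -1.32, Hfe -1.20, Hmga2 -1.01 and Nfil3 -0.85. For genes that fell in MPP they were Trib2 1.02, Slc16a12 2.51, Ank1 1.20, Sphk1 1.29, Kel 0.93, Sox6 1.44, S1pr1 1.26, Rhag 1.28, Ptgs1 0.64, Stxbp4 0.73, Pecam1 0.72, Pcdh7 1.38, Acvr1b 0.92, Vldlr 1.76 and Rora 1.37. Flt3, with no call in MPP, gave 1.34. Ncam2 and Gdf10 had WT MPP means under 4, and Trib2, Slc16a12, Sphk1, Kel, S1pr1 and Rhag had T2F3 MPP means under 4. They were tested only through the MPP group in which they were high, so their values here are a description.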

How the results depend on the processing

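The number of called genes, 6595, was 832 in a test against a difference of 0.5 (631 higher, 201 lower) and 4275 with a replicate block (1867 lower), and 5310 to 7050 when each library was left out. Calls over 2-fold, 646, were 413 with a minimum mean of 6. Of all calls 51.9% were higher, against 43.1% after centring on the median, 45.2% after quantile normalization and 44.6% after centring within bins of gene span. With all 15 libraries in 1 fit 4963 genes were called. The 296 genes whose effect differed from GMP were 173 with a minimum mean of 6, 1550 with array weights, 21 in a test against a difference of 0.5, and 90 to 634 when each library was left out.

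The replicate numbers do not pair the samples: only numbers 1 and 3 are shared, no label ties them to an animal, and the deviations of same-numbered libraries correlated at 0.126 and -0.120. With the replicate block, the adjusted p was 0.0531 for Gdf10, 0.175 for Ifi27l2a and 0.0607 for Iars. In the fit of all 15 libraries 7 named genes were no longer called, Mpc1 (0.0505), Ogdh (0.0653), Cpt1a (0.0639), Nop10 (0.0559), Utp20 (0.0528), Dars (0.0736) and Snrpg (0.0698). In a test against a difference of 0.5, 36 named genes were no longer called. That test left 0 lower genes in the Wnt and DNA repair lists, 1 in the chromatin list and 4 in the TGF-beta list, and 7 higher genes in the S100 list and 5 in the actin list. The small median of the TNF list (0.05) was -0.01 after centring on the median and -0.08 after centring by gene span. With the replicate block the higher and lower counts were 7 and 4 for nucleolar genes, 1 and 0 for tRNA synthetases and 13 and 13 for splicing factors. No named gene that was called changed direction under any of these alternatives.

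The genes that changed sign all gave no call in the main comparison. When libraries were centred within bins of gene span they were Tet2 (0.088), Flt3 (0.063), Tspan32 (-0.063), Csk (-0.056), Gnai2 (-0.022), Calm3 (-0.14) and Galnt1 (0.11). With only the libraries without Y-linked expression they were Tet2 (0.0075), Flt3 (0.012), Sirpa (0.081), Tspan32 (-0.096), Rab44 (-0.16), Rrm1 (0.031), Galnt1 (0.071), Eef2 (0.075), Kars (0.056), Sp3 (0.091) and Casp2 (0.0021). With array weights they were Sirpa (0.012), Tspan32 (-0.069), Rab44 (-0.043), Galnt1 (0.034), Eef2 (0.016), Kars (0.033) and Sp3 (0.037). With centring on the median they were Tspan32 (-0.044), Csk (-0.047), Calm3 (-0.053) and Ncoa3 (-0.042). With quantile normalization they were Csk (-0.012), Gnai2 (-0.16), Calm3 (-0.030), Flna (-0.34), Rab44 (-0.086), Laptm5 (-0.39) and Hnrnpf (-0.19), of which Flna, Laptm5 and Hnrnpf then passed the threshold (adjusted p of 0.00267, 0.0013 and 0.0166). With the replicate block they were Csk (-0.035), Calm3 (-0.059), Stag2 (-0.0003) and Ncoa3 (-0.073). When each library was left out the ranges were Sirpa (-0.26 to 0.030), Tspan32 (-0.087 to 0.074), Csk (-0.030 to 0.061), Gnai2 (-0.0049 to 0.19), Calm3 (-0.046 to 0.067), Rab44 (-0.12 to 0.25), Idh2 (-0.020 to 0.13), Rrm1 (-0.24 to 0.018), Galnt1 (-0.088 to 0.067), Eef2 (-0.11 to 0.038), Kars (-0.12 to 0.070), Ncoa3 (-0.064 to 0.10) and Sp3 (-0.079 to 0.043). The cause of these changes was not tested.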
